A study of Homo sapiens with 2 samples.

Results

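The 10 genes of the MYC, MAX and MXD transcription factor network were followed in NCI-H460 cells after knockdown of CYP4F11. The genes were taken by symbol from the deposited count table, and all 10 were found among its 58735 genes. Of them, 8 had a mean of at least 1 CPM (a count relative to the scaled library size) over both libraries and are called measured here, as were 13942 genes of the whole table. NCI-H460 is an established human large cell lung carcinoma line, described in the labels as derived from pleural effusion. The name NCI-H469 stands in the design text in its place, and the name on the samples is used here. The siCYP4F11 cells, with the genotype label CYP4F11 knockdown, were transfected with an siRNA against CYP4F11 by Lipofectamine RNAiMAX and harvested after 24 h. The siControl cells, with the genotype label WT, received no siRNA against CYP4F11, and the label names no control sequence. Both carry the same batch label, with 1 library in each group, so no difference has a replicate check and no test or p-value is given. The series concerns proliferation and migration of lung cancer cells after loss of CYP4F11, a cytochrome P450 that hydroxylates fatty acids.

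The network controls growth through competing protein pairs. MYC, MYCN and MYCL each bind MAX, and the pair activates genes through the DNA element CACGTG, called the E-box. The MXD proteins (MXD1, MXI1, MXD3 and MXD4), MNT and MGA also bind MAX and the E-box, but recruit corepressors and so oppose MYC. MYC has a short-lived mRNA and protein and is often raised in carcinoma. A change of mRNA level in such bulk RNA cannot be told apart from a change in the number of cells that express the gene.

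The libraries held 13002179 counts in siCYP4F11 and 16207785 in siControl. CYP4F11 had 972 counts in siCYP4F11 against 3180 in siControl, a log2 ratio of -1.40 (95% counting interval -1.51 to -1.30). All intervals describe counting error alone, because each group has 1 library. PCR copies of one molecule cannot be recognised in these libraries, so the intervals can be too narrow even for counting error. Genes whose transcripts hold more GC had lower log2 ratios (Spearman correlation -0.32 over 13936 genes, all from the same 2 libraries). The 10% of genes poorest in GC had a median of 0.13, and the 10% richest in GC a median of -0.14. Keratins of carcinoma cells were abundant, KRT8 with 1038 CPM in siCYP4F11 and 1275 CPM in siControl and KRT19 with 1427 and 1746 CPM, while EPCAM had 8 and 6 counts and CDH1 0 and 1 count. Of 5 leukocyte markers, only CD14 was measured, with 33 counts against 20, and PTPRC and CD3E were at 0. Of 7 fibroblast and endothelial markers 3 were measured, led by LUM with 255 against 209 and DCN with 36 against 26, while PECAM1, VWF and CDH5 were at 0. The list summed to 24.8 CPM in siCYP4F11 and 16.9 CPM in siControl, and its part in the results was not tested.

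Promoter sequences are shown for the pair of network genes whose mRNA differed most in opposite directions, MXI1 and MXD3, and for the pair whose promoters hold an E-box, MNT and MXD4. They are the 250 bases before the gene start in RefSeq on GRCh38.p14, and the capitals mark CACGTG, which reads alike on both strands. The promoter set used here matched 9 of the 10 genes, all but MYC. Of these 9 promoters 2 (22.2%) held the motif, against 6.49% of 27305 promoters of the same length and 9.02% of those of measured genes. The windows of MAX and MXD1 lie wholly inside the gene spans of the deposited annotation, so they do not precede the first annotated start of these genes. In MNT the motif starts 193 bases before the gene start, and in MXD4 it starts 238 bases before it. MXI1 and MXD3 have no match in this window. The windows are chr10:110207355-110207604 on the plus strand, and chr5:177312753-177313002, chr17:2401061-2401310 and chr4:2262110-2262359 on the minus strand.
MXI1: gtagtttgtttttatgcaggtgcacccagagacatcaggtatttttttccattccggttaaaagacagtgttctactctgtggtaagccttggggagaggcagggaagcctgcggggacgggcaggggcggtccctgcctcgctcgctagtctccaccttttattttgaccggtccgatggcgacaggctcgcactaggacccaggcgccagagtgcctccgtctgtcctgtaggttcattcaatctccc
MXD3: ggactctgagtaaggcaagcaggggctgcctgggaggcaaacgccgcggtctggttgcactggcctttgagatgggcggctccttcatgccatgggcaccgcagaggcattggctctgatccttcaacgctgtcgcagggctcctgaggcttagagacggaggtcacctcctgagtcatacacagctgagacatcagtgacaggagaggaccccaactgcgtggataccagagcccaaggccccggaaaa
MNT: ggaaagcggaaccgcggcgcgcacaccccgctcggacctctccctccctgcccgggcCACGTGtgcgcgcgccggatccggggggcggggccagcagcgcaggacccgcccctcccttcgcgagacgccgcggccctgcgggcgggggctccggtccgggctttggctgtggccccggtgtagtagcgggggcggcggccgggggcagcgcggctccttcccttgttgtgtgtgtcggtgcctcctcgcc
MXD4: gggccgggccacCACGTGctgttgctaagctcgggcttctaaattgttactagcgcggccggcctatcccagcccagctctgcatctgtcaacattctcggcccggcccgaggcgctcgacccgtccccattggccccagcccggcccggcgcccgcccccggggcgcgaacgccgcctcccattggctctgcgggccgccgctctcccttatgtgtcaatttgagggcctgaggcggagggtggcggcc

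The levels of the network were dominated by MYC. On a length-scaled scale (TPM, counts per gene length scaled to the same total in each library) MYC stood at 483 TPM in siCYP4F11 and 617 TPM in siControl. MAX, the shared partner, came next with 34.7 TPM in siCYP4F11 and 34.9 TPM in siControl. On this scale MYC was 13.9 times that of MAX in siCYP4F11 (counting interval 12.8 to 15.1) and 17.7 times in siControl (16.4 to 19.0). The size of this gap depends on the length used: per median coding transcript length it was 5.14 times in siCYP4F11 (4.74 to 5.59) and 6.55 times in siControl (6.09 to 7.05). MYC ranked 5th by TPM among the 1553 genes with a transcription factor family in the deposited table in siCYP4F11, and 4th in siControl (6th and 5th per coding transcript length). It lies on chromosome 8 from 127735434 to 127741434 on the plus strand of GRCh38, and no annotated exon of another gene overlaps its exons.

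The paralogues MYCN and MYCL, known from neural and small cell tumours, were close to the limit of detection. MYCN had 1 count in siCYP4F11 and 2 in siControl, below the floor of 3 counts, which is 0.230 CPM in siCYP4F11 and 0.186 CPM in siControl. MYCL had 9 counts in each library, which is 0.689 CPM in siCYP4F11 and 0.557 CPM in siControl. MYC thus supplied 99.83% of the counts of the MYC family in siCYP4F11 (exact interval 99.69% to 99.92%) and 99.88% in siControl (99.79% to 99.94%). These intervals overlap, and for MYCL no difference was detectable at this depth. MYCN spans 15940564 to 15947007 of chromosome 2, plus strand, and MYCL 39895426 to 39902256 of chromosome 1, minus strand. The antisense gene MYCNOS had 0 counts in both libraries.

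**Figure D1:**
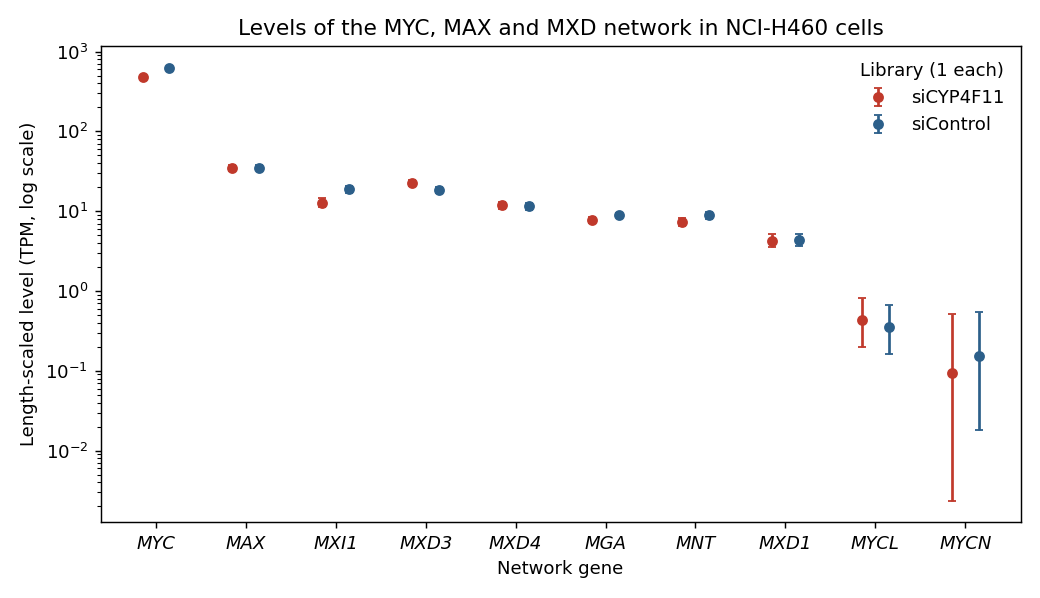
Length-scaled level (TPM, log axis) of each network gene in the siCYP4F11 library (red, left) and the siControl library (blue, right); points are single libraries and bars are 95% Poisson counting intervals. MYC lies above all others, MXI1 and MXD3 move in opposite directions, and MYCL and MYCN lie below 1 TPM.

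The repressor genes spanned a range from MXD3 to MXD1. In siCYP4F11 the order was MXD3 at 22.7 TPM, MXI1 at 12.8, MXD4 at 11.8, MGA at 7.67, MNT at 7.33 and MXD1 at 4.29 TPM. In siControl it was MXI1 at 18.7 TPM, MXD3 at 18.3, MXD4 at 11.6, MGA at 8.97, MNT at 8.85 and MXD1 at 4.38 TPM. The order of MXI1 and MXD3 thus differed between the libraries, while the other ranks were the same. On this scale, neighbours that did not differ beyond counting error were MXI1 and MXD4 in siCYP4F11 (level ratio 1.08, interval 0.917 to 1.28) and MXI1 and MXD3 in siControl (1.02, 0.896 to 1.17). MGA and MNT did not differ beyond counting error in either library, with a ratio of 1.05 (0.903 to 1.22) in siCYP4F11 and 1.01 (0.898 to 1.15) in siControl. MYCL and MYCN, at the foot of the order, were also not separated. These gene models join the exons of all transcripts and are long for MGA (17651 bases) and short for MYC (3001 bases). Per median coding transcript length the order below MXI1 and MXD3 changed, with MGA at 14.9 TPM in siCYP4F11 and 17.4 TPM in siControl, MNT at 8.91 and 10.7 TPM, MXD4 at 8.02 and 7.81 TPM and MXD1 at 1.90 and 1.94 TPM. MGA was then above MNT, by 1.68 times (1.45 to 1.95) in siCYP4F11 and 1.62 times (1.44 to 1.84) in siControl, and MXI1 above MXD4, by 3.23 times (2.73 to 3.82) and 4.83 times (4.21 to 5.54). MXD3 remained above MXI1 in siCYP4F11 (1.505, 1.29 to 1.76) and stood below it in siControl (0.830, 0.727 to 0.947).

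Each gene was then compared between the libraries by its log2 ratio of siCYP4F11 over siControl. The 1.3-fold rule asks for a difference of at least 1.3-fold (0.38 on the log2 scale) and a counting interval without 0. Values in parentheses are the log2 ratio, where it is not yet given, and its counting interval. This rule called 5.19% of measured genes higher and 6.71% lower, and of the 8 network genes it called 0 higher and 1, MXI1, lower. The stricter 2-fold rule called 0.703% of measured genes higher and 1.26% lower, and no network gene in either direction. By the counting interval alone, 18.6% of measured genes were higher and 19.2% lower, against 1 and 4 of the 8 network genes. The median over the 8 genes was -0.12, and over all measured genes it was -0.01.

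MYC mRNA was lower beyond counting error in the siCYP4F11 library but missed the 1.3-fold rule. It had 5954 counts in siCYP4F11 against 9373 in siControl, or 456 CPM against 581 CPM. Its log2 ratio was -0.35 (-0.40 to -0.30), which is 78.6% of the control level (76.0% to 81.2%). Measured genes of similar abundance also varied between the libraries, so counting error is not the whole spread. Among the 507 genes with a mean of at least 300 CPM, the central 95% of log2 ratios ran from -0.36 to 0.29, so MYC lay just inside its lower end. Its transcripts have a GC content of 57.0%, in the band from 54.8% to 58.1% whose genes had a median log2 ratio of -0.09, and after correction for GC content its log2 ratio was -0.25. Of the lncRNA genes next to MYC, PVT1 had 301 counts against 348 (0.10, -0.13 to 0.32) and CASC11 had 19 against 12 (0.95, -0.15 to 2.14), so both were above 0 with intervals that include 0.

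MAX did not differ beyond counting error. It had 633 counts in siCYP4F11 and 783 in siControl, or 48.5 CPM in each. The log2 ratio was 0.00 (-0.15 to 0.15), so by counting error a difference of more than 0.15 in either direction is outside the interval. MAX spans 65006174 to 65102695 of chromosome 14, minus strand. Relative to MAX, MYC was lower by 0.35 on the log2 scale (difference -0.35, exact conditional interval -0.51 to -0.19).

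MXI1, the MAX interactor that competes with MYC for MAX, was the member furthest down. It had 243 counts in siCYP4F11 against 437 in siControl, or 18.6 CPM against 27.1 CPM. Its log2 ratio was -0.54 (-0.77 to -0.31), or 68.8% of the control level (58.5% to 80.6%). The central 95% of the 3286 genes with a mean from 10 to 30 CPM ran from -0.57 to 0.50, so this value too lay inside the spread of genes of its abundance. Its transcripts are near the middle of the GC range, at 46.3%, and the GC-corrected value was -0.56. MXI1 spans 110207605 to 110287365 of chromosome 10, plus strand. An antisense gene overlaps 4.45% of its exon bases and had no counts in either library.

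MXD3, an MXD protein whose mouse orthologue is known from cells in S phase, was the only member higher by its counting interval. It had 482 counts in siCYP4F11 and 478 in siControl, or 36.9 CPM against 29.6 CPM at the smaller depth of the siCYP4F11 library. The log2 ratio was 0.32 (0.13 to 0.50), below the 1.3-fold rule. The central 95% of the 4243 genes with a mean from 30 to 100 CPM ran from -0.41 to 0.40. MXD3 transcripts are rich in GC, at 62.8%, in the GC band with the lowest median log2 ratio, and after the GC correction the value was 0.45, past the rule. The value is less certain than the others because the gene overlaps its neighbours on chromosome 5 (177301461 to 177312757). RAB24 covers 18.0% of its exon bases on the same strand and had 135 counts against 227 (log2 ratio -0.44, -0.76 to -0.13). PRELID1 covers 22.5% on the opposite strand and had 1647 against 2050 (-0.01, -0.10 to 0.08). Whether reads of these neighbours were counted for MXD3 was not tested.

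The remaining MXD genes did not differ beyond counting error. MXD4 had 343 counts in siCYP4F11 and 413 in siControl, with a log2 ratio of 0.04 (-0.17 to 0.25). MXD1, which is induced when many cell types differentiate, had 112 against 141 (-0.02, -0.40 to 0.34). MXD4 spans 2247432 to 2262294 of chromosome 4, minus strand, and MXD1 69897688 to 69942945 of chromosome 2, plus strand. At these counts a difference of the size seen for MYC would lie within the interval of MXD1 but outside that of MXD4.

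MNT and MGA, the repressors outside the MXD family, were lower by their counting intervals. MNT, a broadly expressed antagonist of MYC, had 263 counts in siCYP4F11 against 391 in siControl (-0.26, -0.50 to -0.04). After the GC correction its value was -0.15 and its interval (-0.38 to 0.08) included 0. MGA had 557 against 802 (-0.22, -0.38 to -0.06), and -0.29 after the correction. MGA carries a T-box DNA-binding domain as well as the domain that pairs with MAX, and the deposited table files it under T-box while the other 9 genes are under bHLH. Neither gene passed the 1.3-fold rule. MNT spans 2384060 to 2401118 of chromosome 17, minus strand, and MGA 41621224 to 41773081 of chromosome 15, plus strand. Of 37 other measured genes that the table annotates as bHLH, 15 were above 0 and 22 below, with a median of -0.09.

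**Figure D2:**
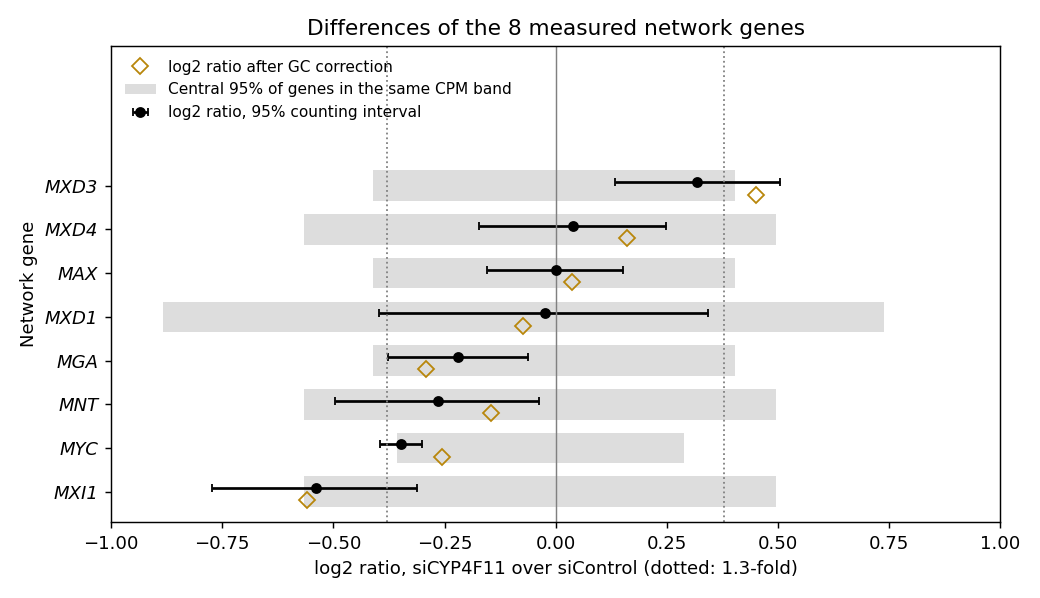
Log2 ratio of siCYP4F11 over siControl for the 8 measured network genes (black points, bars are 95% counting intervals), with GC-corrected values (open diamonds) and the central 95% of measured genes in the same CPM band (grey). MXI1 is lowest at -0.54 and MXD3 highest at 0.32, and all 8 points lie inside their grey bars.

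**Figure D3:**
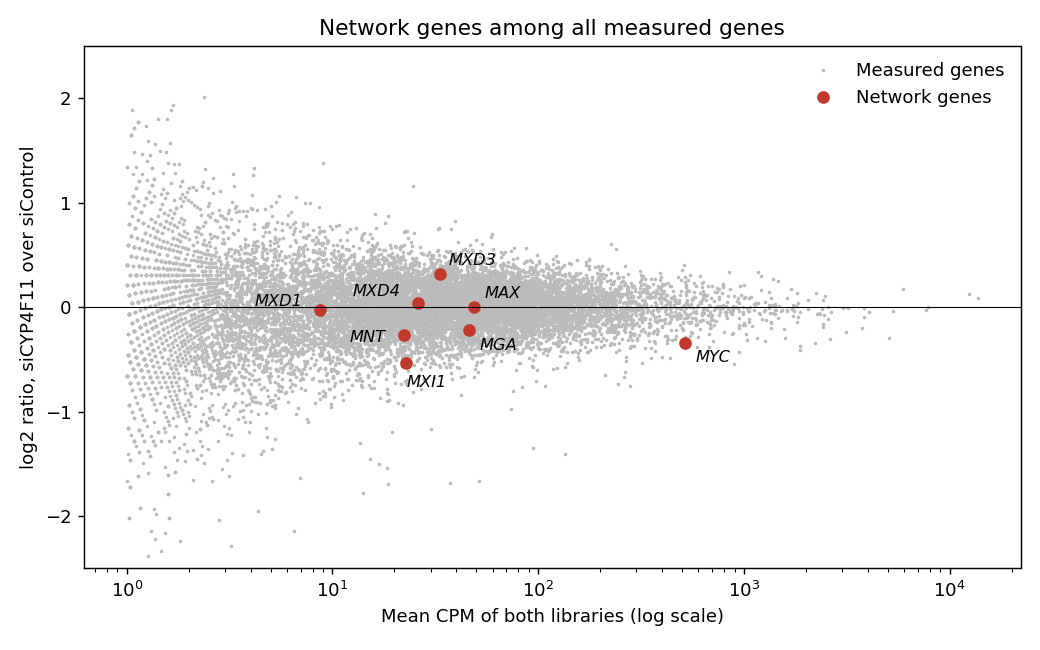
Log2 ratio against mean CPM (log axis) for 13942 measured genes (grey), of which 7 lie outside the axis, with the network genes in red. MYC stands alone at high abundance and below 0, and the other 7 lie in the body of the cloud.

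The members were also compared with one another, which does not depend on library scaling. Of the 28 pairs of measured members, 11 had a difference of log2 ratios whose exact conditional interval excluded 0. The share over pairs of other measured genes was not computed, so the 11 pairs are not read as particular to this network. The 18.6% of measured genes higher and 19.2% lower by the counting interval describe single genes and give no background for pairs. The pair differences were not corrected for GC content. MXI1 and MXD3 took part in 5 such pairs each and MYC in 3. The widest gap was MXI1 minus MXD3, at -0.86 (-1.16 to -0.56). MYC minus MXD3 was -0.67 (-0.86 to -0.47), and MYC minus MXD4 was -0.39 (-0.60 to -0.17). MYC minus MXI1 was 0.19 (-0.04 to 0.43) and MYC minus MNT -0.08 (-0.32 to 0.15), so MYC was not separated from these repressors by counting error.

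Between these 2 libraries the repressor arm differed in its make-up more than in its sum. The 6 repressors summed to 66.7 TPM in siCYP4F11 and 70.8 TPM in siControl, and relative to MAX their log2 change was -0.08 (-0.26 to 0.10). MXD3 made up 34.1% of this sum in siCYP4F11 and 25.9% in siControl, while MXI1 made up 19.2% and 26.5%. Per coding transcript length the MXD3 share was 39.5% in siCYP4F11 and 29.3% in siControl, and the MXI1 share 26.3% and 35.3%. The level of MXD3 was 1.77 times that of MXI1 in siCYP4F11 and 0.978 times in siControl. The MYC family stood at 7.24 times the summed repressors in siCYP4F11 and 8.72 times in siControl, a log2 change of -0.27 (-0.37 to -0.16). The ratios were 4.20 in siCYP4F11 and 4.93 in siControl per coding transcript length, and 2.98 and 3.53 without length scaling. This change rested in part on single repressors, being -0.40 without MXI1 and -0.10 without MXD3. The intervals of sums are normal approximations of counting error.

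**Figure D4:**
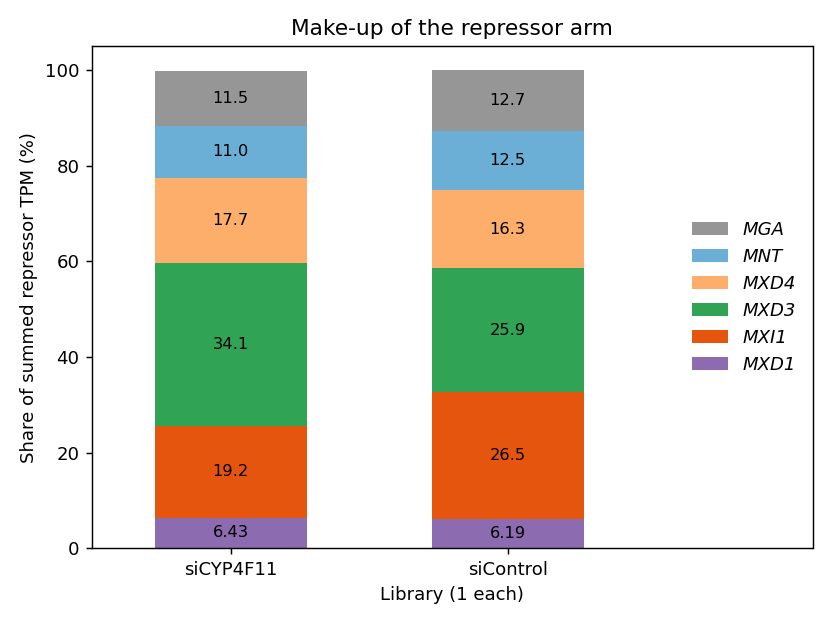
Share of each repressor gene in the summed TPM of the 6 repressors, for the siCYP4F11 library (left) and the siControl library (right). The MXD3 share is 34.1% against 25.9%, and the MXI1 share is 19.2% against 26.5%.

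The MLX arm is a parallel branch in which MLX takes the place of MAX and pairs with the glucose-sensing factors MLXIP (MondoA) and MLXIPL (ChREBP). Of the 3 measured genes of this arm, 0 were higher and 1 (33.3%) lower by the 1.3-fold rule, against 5.19% and 6.71% of all measured genes. MLXIP was the lower one, with 562 counts in siCYP4F11 against 1004 in siControl (-0.53, -0.68 to -0.38). After the GC correction its value was -0.44. MLX had 733 against 946 (-0.06, -0.20 to 0.08). MLXIPL had 39 against 58 (-0.26, -0.89 to 0.34).

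The corepressors through which MXD, MNT and MGA act showed no calls by the 1.3-fold rule. This rule called 5.19% of all measured genes higher and 6.71% lower, so few or no calls are likely in lists this small. Of 16 measured genes of the SIN3 complex, which MXD and MNT proteins recruit, 0 were higher and 0 lower, with a median of 0.05. By the counting interval alone 2 (12.5%) were higher and 0 lower, against 18.6% and 19.2% of all measured genes. The largest values were those of ING2, with 242 counts against 236 (0.34, 0.08 to 0.61), and RBBP7, with 3001 against 3060 (0.28, 0.21 to 0.35). Of 11 genes of PRC1.6, the polycomb complex that holds MGA, 0 were higher and 0 lower by the 1.3-fold rule, with a median of -0.05. By the counting interval alone 4 (36.4%) were higher and 2 (18.2%) lower. The largest values were those of CBX1 (0.36, 0.26 to 0.46) and YAF2 (0.27, 0.05 to 0.49). Of 15 germline genes that this complex holds silent in mouse cells, 8 had 0 counts in both libraries and 3 were measured. None of the 3 passed the rule, ZCWPW1 having 17 counts against 13 (0.68, -0.44 to 1.86) and STK31 37 against 55 (-0.26, -0.91 to 0.36). The third, DAZL, is named as an exception because it was the most abundant of the list. It had 93 counts in siCYP4F11 against 133 in siControl (-0.21, -0.61 to 0.18), or 7.12 CPM against 8.24 CPM.

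Of 15 measured cofactor genes of MYC, 0 were higher and 2 (13.3%) lower by the 1.3-fold rule, against 5.19% and 6.71% of all measured genes. By the counting interval alone 0 were higher and 7 (46.7%) lower, against 18.6% and 19.2% of all measured genes. Of the 15, 13 (86.7%) were below 0, against 50.8% of all measured genes, with a median of -0.11 against -0.01. KAT5, the TIP60 acetyltransferase, had 155 counts in siCYP4F11 against 276 in siControl (-0.52, -0.82 to -0.24), and RNASEH2C on the opposite strand covers 38.6% of its exon bases. EP300, another acetyltransferase, had 783 against 1303 (-0.43, -0.56 to -0.30). Of 16 measured genes for the stability of MYC protein, 0 were higher and 1 lower, with a median of -0.06. The lower one was USP36, a nucleolar deubiquitinase that stabilises MYC, with 1225 against 2278 (-0.59, -0.69 to -0.49).

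Of 55 measured genes widely listed as MYC targets, 1 was higher and 3 were lower by the 1.3-fold rule. These shares of 1.82% and 5.45% are no larger than the 5.19% and 6.71% of all measured genes. By the counting interval alone 6 (10.9%) were higher and 20 (36.4%) lower, against 18.6% and 19.2% of all measured genes. Counting intervals narrow as counts rise, and the shares among genes of like abundance were not computed. Of the 55, 15 were above 0 and 40 (72.7%) below, against 50.8% below among all measured genes, with a median of -0.08, or -0.06 after the GC correction. All 4 calls by the 1.3-fold rule were lost with that correction, as it moved each log2 ratio inside the 1.3-fold limit. HK2, a hexokinase, had 1140 counts in siCYP4F11 against 1862 in siControl (-0.40, -0.51 to -0.29; -0.37 corrected). SLC29A2, a nucleoside transporter, was at -0.46 (-0.76 to -0.16; -0.34 corrected) and MYBBP1A, a nucleolar protein, at -0.39 (-0.49 to -0.29; -0.27 corrected). HSPE1, a mitochondrial chaperonin that shares reads with a readthrough gene, was at 0.38 (0.29 to 0.47; 0.36 corrected). NOP2 and IPO4 were not measured, and NOP2 shares 49.3% and IPO4 58.4% of its 50-base words with an overlapping gene.

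A second list held 23 classical E-box targets of growth metabolism and the cell cycle, all measured. By the 1.3-fold rule 0 were higher and 2 (8.70%) lower, against 5.19% and 6.71% of all measured genes. Both were also past the 2-fold rule, which called 1.26% of measured genes lower. TERT, the catalytic subunit of telomerase, had 8 counts in siCYP4F11 against 42 in siControl (-2.02, -3.39 to -0.98). CCND2, a D-type cyclin, had 12 against 37 (-1.28, -2.39 to -0.35), and it shares 13.2% of its 50-base words with an overlapping gene. Both are low in these cells, TERT at 0.613 CPM in siCYP4F11 and 2.60 CPM in siControl and CCND2 at 0.919 and 2.29 CPM. By the counting interval alone 4 (17.4%) of the 23 were higher and 12 (52.2%) lower, against 18.6% and 19.2% of all measured genes. The list had 6 genes above 0 and 17 (73.9%) below, against 50.8% below among all measured genes. Its median was -0.06, or -0.01 after the GC correction. ODC1, the enzyme that starts polyamine synthesis and a classical MYC target, was named after its value was seen and had 6446 counts against 8061 (-0.02, -0.06 to 0.03).

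Genes with and without an E-box in the promoter had nearly the same median. The 905 measured genes with CACGTG in the window had a median log2 ratio of -0.04, against 0.00 for 9126 genes without it. Of 66 promoters of the MYC target lists, 20 (30.3%) held the motif. Their measured genes had a median of -0.04 (19 genes), and those without it -0.05 (45 genes).

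Of 10 measured genes that MYC is known to repress with the zinc finger protein MIZ1, 2 were higher and 1 lower by the 1.3-fold rule, against 5.19% and 6.71% of all measured genes, with a median of 0.13. CDKN1A, the cell cycle inhibitor p21, had 1270 counts in siCYP4F11 against 1171 in siControl (0.42, 0.31 to 0.54). NDRG2, a candidate tumour suppressor, had 128 against 79, or 9.81 CPM against 4.89 CPM, with a log2 interval of 0.59 to 1.43. TXNIP, which is also a target of MLXIP, was lower with 4734 against 8198 (-0.49, -0.54 to -0.43). CDKN1A is also a target of p53, and the part of either factor was not tested.

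**Figure D5:**
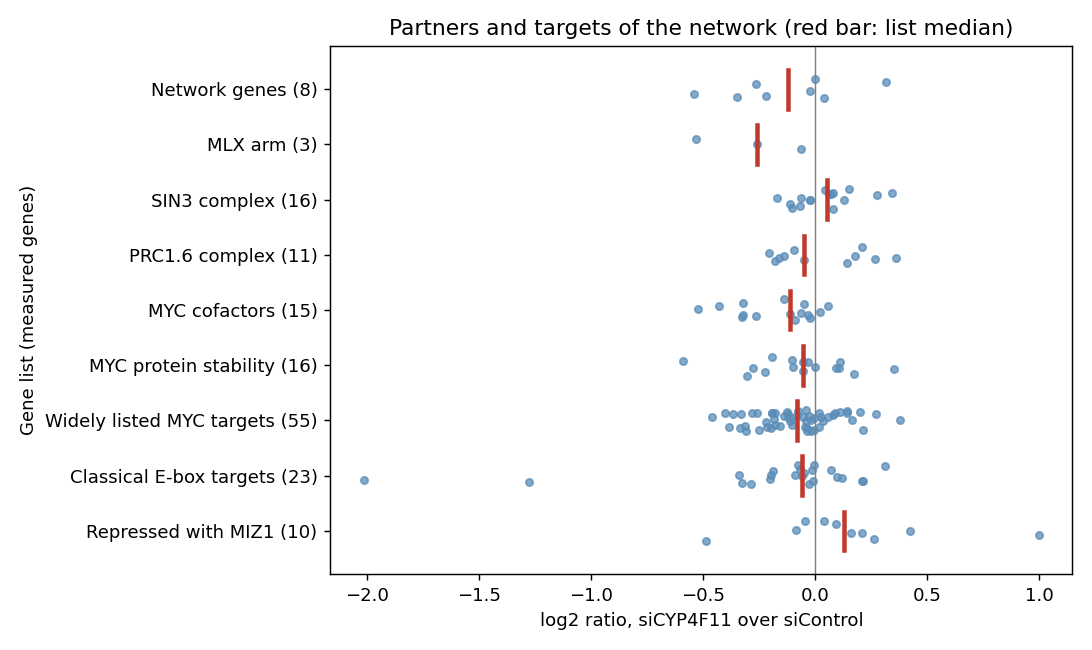
Log2 ratios of siCYP4F11 over siControl for the measured network genes and 8 lists of partners and targets (points, number of genes in parentheses) with the list median (red bar); marker, germline and antisense lists are not drawn. The drawn medians lie between -0.26 for the MLX arm and 0.13 for the genes taken as repressed by MYC. The latter are labelled Repressed with MIZ1, which applies to some of them. TERT at -2.02 and CCND2 at -1.28 stand apart to the left.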

How the data were processed

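RNA was measured in 2 NCI-H460 libraries by poly-A selection and strand-specific dUTP sequencing, per the labels' protocols. The authors deposited raw read counts per gene with gene lengths. Build GRCh38 and the tools edgeR 4.0.16, featureCounts 2.0.6, HISAT2 2.2.1 and fastp come from the submitters' processing notes. The sources used here give neither their parameters nor whether counting used strand. All 58735 gene IDs, positions and symbols matched GENCODE 29, and the gene lengths equal the union of its exons. The table had 0 further sample columns.

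Library sizes were scaled by TMM in edgeR 4.0.16 (R 4.3.3), with factors of 1.004 for siCYP4F11 and 0.996 for siControl. Log2 ratios used 0.5 added to each count and exact Clopper-Pearson 95% intervals from the 2 counts. edgeR's quasi-likelihood test needs replicates and was not run. TPM was computed from the counts and deposited lengths. Pair differences used exact conditional odds ratio intervals. GC correction was a lowess of log2 ratio on transcript GC content, span 0.3. Shared reads were screened with 50-base words of GENCODE transcripts, and promoters came from RefSeq (GRCh38.p14). Alternatives were total counts, DESeq2 1.42.0 size factors, upper-quartile sizes, 2 added to each count, the GC correction, no filter or a mean of at least 5 CPM, other length scalings, list means and lists without genes that share reads. Scripts were tested on simulated data and used matplotlib 3.10.9, statsmodels 0.14.6, pandas 2.3.3, scipy 1.17.1 and numpy 2.4.6 under Python 3.11.15.

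The members and lists were chosen with earlier results of these data known. All members are named. Of each list, up to 6 genes past the 1.3-fold rule in each direction are named, or, if no gene passed, the 2 furthest from 0, and exceptions are marked. Of 195 list entries, 190 were found by symbol and 5 were not.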

Additional observations from a re-analysis of the deposited data

How the results depend on the processing

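The 8 member log2 ratios were recomputed with 3 other library scalings, 2 added to each count and the GC correction. MXI1 passed the 1.3-fold rule under all 5, from -0.56 to -0.53. MXD3 passed it only with the GC correction, at 0.45, and MYC stayed lower but left its counting interval with that correction, at -0.25. The other scalings moved the median of all genes to at most 0.01. With no filter on low counts the 2-fold rule gave 345 higher and 476 lower genes, and with a mean of at least 5 CPM it gave 5 and 19, since more or fewer low-count genes are tested. With the GC correction 0 widely listed MYC targets were higher and 0 lower by the 1.3-fold rule, because the correction moved the log2 ratios of the 4 genes inside the limit, HSPE1 to 0.36 and HK2 to -0.37. At a mean of at least 5 CPM, 0 classical E-box targets were lower by either rule, because TERT and CCND2 are below that level. The medians of these lists stayed below 0 in every alternative run, from -0.11 to -0.06 for the widely listed targets and from -0.06 to -0.01 for the classical ones. The list means were -0.09 for the widely listed targets and -0.18 for the classical ones, which include TERT at -2.02. The log2 change of the MYC family over the repressors was -0.40 without MXI1 and -0.10 without MXD3, and stayed within its interval in the 7 other alternatives, while the ratio itself depended on the length scaling. Lists without genes that share reads, list means, coding transcript lengths and the GC-corrected balance were chosen after seeing the data. No paired analysis was possible because each group has 1 library, and for the same reason no replicate could be left out. Low counts leave wide intervals for MYCL, TERT, CCND2, CASC11 and ZCWPW1, and MYCN is below the floor of 3 counts.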
